A study of Mus musculus with 4 samples.

Results

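The genes described here are the 3 nuclear receptors of the NR4A family (Nr4a1, Nr4a2 and Nr4a3) and 7 other immediate early genes (Egr1, Fos, Fosb, Jun, Junb, Atf3 and Dusp1). These 10 genes, of 25906 in the count matrices, were chosen by measured values, since earlier results of the same libraries had shown them to differ, so the differences below are descriptions of that choice and carry no test. Each symbol occurred once in the matrices. Nuclei came from ventricles of wild-type C57BL/6J mice of both sexes, 8 weeks old at the start, and were profiled with a droplet-based 3' assay that counts unique molecular identifiers (UMIs). The running infarct library pools 4 hearts taken 2 weeks after infarct surgery that followed 16 weeks of voluntary wheel running, and the sedentary infarct library pools 4 hearts taken 2 weeks after the same surgery without running. The running library pools 2 hearts after 16 weeks of running and the sedentary library 2 hearts of mice that had not run, both without infarction. Each group has 1 library (n = 1), so no comparison was tested, and every interval given at 95% covers counting error only, not differences between mice.

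Immediate early genes are transcribed within minutes of a stimulus from factors already present in the cell, without new protein synthesis, and their RNAs are short-lived. In the heart they respond to stretch, adrenergic signals, calcium, ischaemia and growth factors, through kinases that act on CREB and on the serum response factor. NR4A receptors are orphan nuclear receptors whose activity follows their abundance. Egr1 encodes a zinc finger factor, Fos, Fosb, Jun and Junb encode subunits of the AP-1 dimer, Atf3 a stress-induced factor of the ATF family, and Dusp1 a phosphatase that inactivates MAP kinases. These genes are also known to respond to the handling of tissue.

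Promoter sequence was examined because several members differed together. RefSeq promoters (build GRCm38.p6, used for sequence only, since the counts use GRCm39) were found for 9 of the 10 members (all but Egr1), and the 250 bases before the annotated start are printed for 5 of them. Capitals mark TGACG on either strand (CGTCA on the printed one), the core of the cyclic AMP response element, and in Dusp1 also the full element TGACGTCA, which holds 2 overlapping cores. The Nr4a1 promoter lies at chr15:101266596-101266845 (plus strand), the Nr4a2 promoter at chr2:57124004-57124253 (minus strand), the Nr4a3 promoter at chr4:48045055-48045304 (plus strand), the Fos promoter at chr12:85473640-85473889 (plus strand) and the Dusp1 promoter at chr17:26508473-26508722 (minus strand). Each is written 5' to 3' on the strand of its gene.
Nr4a1: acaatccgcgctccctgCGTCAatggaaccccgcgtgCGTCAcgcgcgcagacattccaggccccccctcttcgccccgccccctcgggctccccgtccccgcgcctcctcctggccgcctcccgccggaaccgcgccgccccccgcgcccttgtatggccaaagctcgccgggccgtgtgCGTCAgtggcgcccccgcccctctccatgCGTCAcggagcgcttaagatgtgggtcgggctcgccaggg
Nr4a2: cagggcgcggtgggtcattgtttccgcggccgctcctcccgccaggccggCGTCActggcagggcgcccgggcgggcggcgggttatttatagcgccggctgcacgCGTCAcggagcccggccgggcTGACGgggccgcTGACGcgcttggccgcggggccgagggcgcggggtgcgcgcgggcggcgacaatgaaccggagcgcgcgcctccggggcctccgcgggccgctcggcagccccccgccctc
Nr4a3: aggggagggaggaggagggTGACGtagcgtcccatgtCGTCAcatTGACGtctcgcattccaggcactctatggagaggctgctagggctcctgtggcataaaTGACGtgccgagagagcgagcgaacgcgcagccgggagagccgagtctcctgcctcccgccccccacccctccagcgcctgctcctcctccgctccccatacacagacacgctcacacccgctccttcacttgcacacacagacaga
Fos: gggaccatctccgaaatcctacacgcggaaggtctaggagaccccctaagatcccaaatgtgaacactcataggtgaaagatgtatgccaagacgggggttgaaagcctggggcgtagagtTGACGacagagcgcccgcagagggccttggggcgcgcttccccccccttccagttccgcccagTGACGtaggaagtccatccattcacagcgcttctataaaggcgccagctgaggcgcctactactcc
Dusp1: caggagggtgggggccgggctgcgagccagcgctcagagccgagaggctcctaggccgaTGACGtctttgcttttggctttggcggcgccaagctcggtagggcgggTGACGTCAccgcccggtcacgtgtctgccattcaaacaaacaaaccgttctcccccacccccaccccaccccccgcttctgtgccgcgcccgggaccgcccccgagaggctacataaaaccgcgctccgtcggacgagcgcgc
Each of the 3 NR4A promoters held 4 cores, starting 233, 213, 69 and 40 bases before the Nr4a1 start, 200, 144, 123 and 111 before that of Nr4a2, and 231, 213, 205 and 147 before that of Nr4a3. Fos held 2 (129 and 66 bases before its start) and Dusp1 3 (191, 143 and 140), with Fosb, Junb and Atf3 holding 1 each and Jun 0. A core occurred in 8 of 9 member promoters and in 17.9% of 32536 promoters of the same length. The full element TGACGTCA occurred in 1 of 9 (Dusp1) and in 1.56% of all promoters, and the CArG box of the serum response factor in 0 of 9 and 1.48%. Only exact matches within these 250 bases were sought, so sites farther upstream, inexact sites and those of Egr1 were not covered. These letter matches are descriptions of the sequence, and binding was not measured.

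The libraries held 4922 barcodes (running infarct), 3243 (sedentary infarct), 6253 (running) and 5388 (sedentary), with 26170995 to 37533722 UMIs each. Between 2 and 12 barcodes were shared by any pair of libraries. After filtering, 4710, 3123, 5824 and 5110 nuclei remained in that order, and clusters were named from marker genes with the members left out of the clustering. Mitochondrially encoded genes took 3.87% of UMIs in the running infarct, 4.48% in the sedentary infarct, 9.47% in the running and 6.06% in the sedentary library, so the running library was highest. Levels are UMIs per 1000000 (CPM) of a class's summed UMIs without mitochondrial genes. A gene was called measured in a comparison with at least 100 UMIs over both libraries, and called higher or lower from 1.5-fold.

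Nr4a1, which adrenergic signals and exercise are known to induce in muscle, stood far above its other levels in cardiomyocyte-like nuclei of the running library. In that class it had 33.6 CPM (26.2 to 42.6, 69 UMIs) in the running infarct library, 62.2 (54.2 to 71.1, 216 UMIs) in the sedentary infarct library, 327 (312 to 342, 1761 UMIs) in the running library and 41.6 (36.8 to 46.9, 271 UMIs) in the sedentary library. The running library stood apart from the 3 others, whose highest upper bound was 71.1 CPM. The running library was 7.85-fold higher (6.91 to 8.96) than the sedentary one. The running infarct library was 9.72-fold lower (7.64 to 12.5) than the running one and 1.85-fold lower (1.41 to 2.46) than the sedentary infarct one. The sedentary infarct library was above the sedentary one by 0.58 on the log2 scale (1.25 to 1.80 as a fold), just under 1.5-fold. One cluster of low depth supplied 50.1% of the class in the running infarct, 20.4% in the sedentary infarct, 13.7% in the running and 11.0% in the sedentary library. Nr4a1 had 17.5 CPM (5.67 to 40.7, 5 UMIs), 34.6 (9.42 to 88.5, 4 UMIs), 108 (65.3 to 169, 19 UMIs) and 57.3 (26.2 to 109, 9 UMIs) in that cluster in the same order, where the running library did not stand apart from the sedentary infarct and sedentary ones beyond counting error. In the other cluster of the class it had 36.2, 63.2, 334 and 41.2 CPM in that order.

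In the running library 55.7% of 657 cardiomyocyte-like nuclei had a Nr4a1 UMI and 51 nuclei had 10 or more, while at most 1 nucleus of the class reached 10 in any other library. The 10 nuclei with the most Nr4a1 UMIs held 13.1% of them there, so the RNA was not confined to a few nuclei. With each nucleus thinned to 1000 UMIs, the share with a Nr4a1 UMI was 0.639% (0.0775 to 2.29) of 313 nuclei in the running infarct library, 6.55% (4.2 to 9.67) of 351 in the sedentary infarct library, 21.0% (17.9 to 24.3) of 639 in the running library and 4.10% (2.80 to 5.76) of 757 in the sedentary library. Lymphatic endothelial-like nuclei, with the lowest Nr4a1 level of the 8 classes plotted in the running library, gave 1.62% (0.443 to 4.09) of 247 nuclei there. Median depth in the running library was 8521 UMIs in cardiomyocyte-like and 4168 in lymphatic endothelial-like nuclei. Median depth of the cardiomyocyte-like class was 3310 UMIs in the running infarct, 9533 in the sedentary infarct, 8521 in the running and 8475 in the sedentary library.

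**Figure D1:**
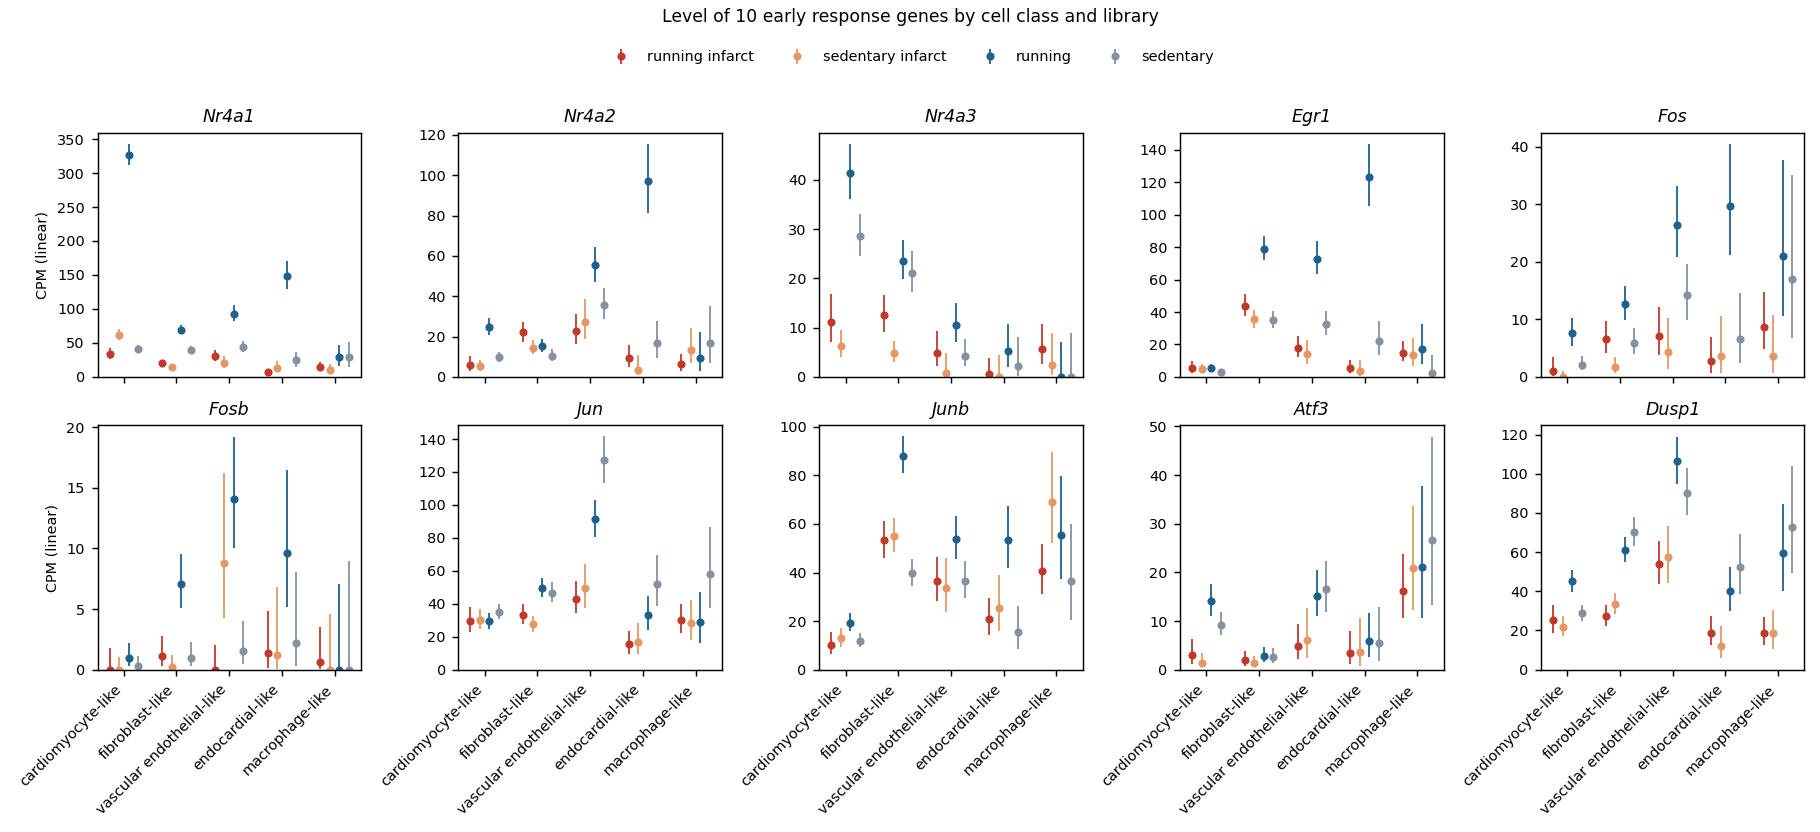
Level of each of the 10 members (CPM, linear axis, 1 panel per gene) in 5 cell classes. Points are the 4 libraries (n = 1 each) and bars are 95% counting intervals. Nr4a1 reached 327 CPM in cardiomyocyte-like nuclei of the running library, against 33.6, 62.2 and 41.6 CPM in the running infarct, sedentary infarct and sedentary libraries.

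The high Nr4a1 level of the running library sat mainly in nuclei with Y-linked transcripts, which held 1501 of its 1761 Nr4a1 UMIs in the cardiomyocyte-like class. The UMIs of 4 genes of the Y chromosome were summed: a nucleus was called Y-positive from a sum of 2 and Y-negative at 0, and the Y-negative group can still hold male nuclei of low depth. Among Y-positive cardiomyocyte-like nuclei, Nr4a1 had 27.9 CPM (14.8 to 47.7, 52 nuclei) in the running infarct library, 32.0 (22.2 to 44.7, 86 nuclei) in the sedentary infarct library, 488 (464 to 513, 312 nuclei) in the running library and 27.4 (21.7 to 34.1, 297 nuclei) in the sedentary library. Among Y-negative ones Nr4a1 had 37.5 CPM (28.03 to 49.2, 313 nuclei) in the running infarct and 75.5 (64.6 to 87.8, 266 nuclei) in the sedentary infarct library. It had 95.8 CPM (82.3 to 111, 283 nuclei) in the running and 52.1 (44.2 to 60.98, 395 nuclei) in the sedentary library. The running library had the highest value in both, on the log2 scale by 4.15 over the sedentary library in Y-positive nuclei and by 0.88 in Y-negative nuclei. In Y-negative nuclei its interval overlapped that of the sedentary infarct library, so it stood apart only from the running infarct and sedentary libraries. All 51 nuclei with 10 or more Nr4a1 UMIs in the running library were Y-positive. Since 2 hearts were pooled there, sex and single heart cannot be told apart, and how far 1 heart sets the level was not tested.

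**Figure D2:**
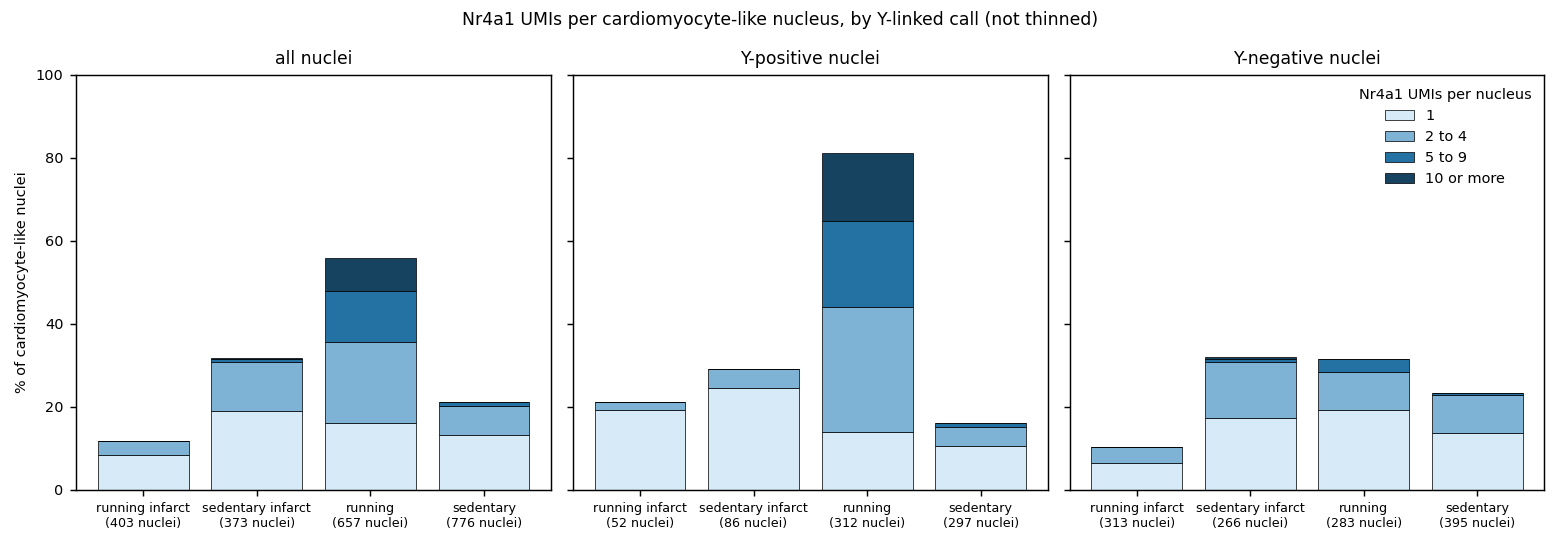
Share of cardiomyocyte-like nuclei (%, linear axis) with 1, 2 to 4, 5 to 9 and 10 or more Nr4a1 UMIs, in each library, for all nuclei, Y-positive and Y-negative nuclei. Nuclei were not thinned. The darkest band, 10 or more UMIs, holds 7.76% of all and 16.3% of Y-positive nuclei of the running library.

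The running library was also highest for Nr4a1 in endocardial-like, vascular endothelial-like and fibroblast-like nuclei, at lower levels. In endocardial-like nuclei it had 6.73 CPM (10 UMIs) in the running infarct, 13.4 (11 UMIs) in the sedentary infarct, 149 (201 UMIs) in the running and 24.5 (22 UMIs) in the sedentary library. In vascular endothelial-like nuclei it had 30.6, 21.2, 93.3 and 44.4 CPM, and in fibroblast-like nuclei 20.4, 14.1, 69.0 and 40.1 CPM, in the order running infarct, sedentary infarct, running, sedentary. The largest vascular endothelial-like cluster of the running infarct library held 75.1% of the class there, 54.1% in the sedentary infarct, 37.1% in the running and 27.3% in the sedentary library. Nr4a1 had 30.3 CPM (21.0 to 42.3), 25.1 (12.5 to 44.9), 59.9 (41.5 to 83.7) and 28.3 (13.6 to 52.0) within it in the same order, so the running library was highest there but its interval overlapped all 3 others. In the cluster that held 5.27, 7.80, 20.2 and 20.8% of the class, Nr4a1 had 56.1, 22.4, 184 and 107 CPM. In the fibroblast-like cluster next in size to that led by Col11a1 and Col12a1 in the running infarct library, Nr4a1 had 34.0 CPM in the running infarct, 15.6 in the sedentary infarct, 108 in the running and 63.8 in the sedentary library. The running library was thus highest within each of these clusters, while their shares differed between libraries. Within the running library the order of classes was cardiomyocyte-like, endocardial-like and vascular endothelial-like, whose intervals did not overlap, then fibroblast-like (62.5 to 76.0) and the cluster led by Myh11 (47.1 to 95), which did. Macrophage-like nuclei had 14.4 CPM (9.10 to 21.6) in the running infarct, 9.87 (4.26 to 19.4) in the sedentary infarct, 28.8 (16.1 to 47.4) in the running and 29.2 (15.1 to 50.9) in the sedentary library, so the 2 uninjured libraries did not differ beyond counting error there. As a measure of free cardiomyocyte RNA, the summed level of 10 abundant cardiomyocyte transcripts in endocardial-like nuclei was 2608, 3713, 3865 and 4399 CPM in the order running infarct, sedentary infarct, running, sedentary, against 59230 to 60630 CPM in cardiomyocyte-like nuclei. In the running library that sum was 4857 CPM in macrophage-like, 4820 in vascular endothelial-like and 3196 in fibroblast-like nuclei. The part of free RNA in the Nr4a1 levels of these classes was not tested.

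Nr4a2, a receptor best known from dopaminergic neurons, had its highest level in endocardial-like nuclei of the running library. There it had 9.42 CPM in the running infarct, 3.65 in the sedentary infarct, 97.1 in the running and 16.7 in the sedentary library, which made the running library 5.83-fold higher (3.41 to 10.7) than the sedentary one and the running infarct library 10.3-fold lower (5.93 to 19.4) than the running one. In cardiomyocyte-like nuclei it had 5.85, 5.19, 24.7 and 9.67 CPM in the same order, 2.55-fold higher (1.88 to 3.5) in running than in sedentary. Y-positive nuclei held 110 of its 133 UMIs in that class of the running library, at 35.8 CPM, against 8.56 CPM in Y-positive nuclei of the sedentary library. In Y-negative nuclei the order turned, with 8.52 CPM (4.87 to 13.8, 16 UMIs) in the running and 10.5 CPM (7.12 to 14.9, 31 UMIs) in the sedentary library, and these intervals overlapped. In fibroblast-like nuclei the order differed. Nr4a2 had 22.1 CPM (17.5 to 27.4) in the running infarct, 14.6 (11.3 to 18.5) in the sedentary infarct, 15.3 (12.3 to 18.8) in the running and 10.6 (7.98 to 13.9) in the sedentary library. It was thus the only measured member and class pair of the 4 main classes at least 1.5-fold higher in the running infarct than in the sedentary infarct library, by 1.51-fold (1.08 to 2.12). The clusters that make up the class differed between libraries. A cluster led by Col11a1 and Col12a1 held 42.4% of fibroblast-like nuclei in the running infarct and 28.3% in the sedentary infarct library, and 2 nuclei in each uninjured library. Within it Nr4a2 had 26.6 CPM (19.6 to 35.3) in the running infarct and 27.7 (20.4 to 36.7) in the sedentary infarct library, which did not differ beyond counting error. In the largest other cluster of both infarct libraries, Nr4a2 had 18.6 CPM in the running infarct, 6.37 in the sedentary infarct, 21.6 in the running and 15.9 in the sedentary library. The part of the cluster make-up in the difference was not tested.

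Nr4a3, a close relative that overlaps with Nr4a1 in function in mouse blood cells, was lower in both infarct libraries than in both uninjured ones in cardiomyocyte-like and fibroblast-like nuclei. In cardiomyocyte-like nuclei it had 11.2 CPM (7.1 to 16.8) in the running infarct, 6.34 (3.97 to 9.60) in the sedentary infarct, 41.4 (36.1 to 47.2) in the running and 28.6 (24.6 to 33.0) in the sedentary library, so the infarct intervals overlapped each other and lay below both others. The running infarct library was 3.69-fold lower (2.40 to 5.94) than the running one and the sedentary infarct library 4.51-fold lower (2.89 to 7.36) than the sedentary one. In fibroblast-like nuclei it had 12.5, 4.79, 23.6 and 21.1 CPM in the order running infarct, sedentary infarct, running, sedentary, where the 2 uninjured libraries overlapped. In the fibroblast-like cluster led by Gfpt2 it had 18.6, 4.63, 42.8 and 37.6 CPM in that order. In the cluster led by Kcnip1 it had 6.57, 1.99, 5.86 and 8.07 CPM (3, 2, 17 and 22 UMIs), and all these intervals overlapped. The part of the cluster make-up was not tested. Macrophage-like nuclei had 5.62 CPM of Nr4a3 (2.57 to 10.7, 9 UMIs) in the running infarct and 2.47 (0.299 to 8.91, 2 UMIs) in the sedentary infarct library. Both uninjured libraries had 0 UMIs there, with upper bounds of 7.07 CPM (running) and 8.96 CPM (sedentary), so all these intervals overlapped. Vascular endothelial-like nuclei had 4.91 CPM in the running infarct and 4.32 CPM in the sedentary library. Unlike Nr4a1, Nr4a3 in cardiomyocyte-like nuclei was not highest in the Y-positive nuclei of the running library: these had 36.4 CPM, against 43.5 CPM in Y-positive nuclei of the sedentary library. Y-negative nuclei had 50 CPM in the running and 16.9 CPM in the sedentary library.

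Egr1 was lower in cardiomyocyte-like nuclei than in the other classes of the running library, at 5.36, 4.90, 5.56 and 2.76 CPM in the running infarct, sedentary infarct, running and sedentary libraries, with 11 to 30 UMIs each. Its high values lay in the lining and stromal classes of the running library. Endocardial-like nuclei had 5.38, 3.65, 123 and 22.2 CPM in the same order, 5.54-fold higher (3.47 to 9.30) in running than in sedentary and 22.9-fold lower (11.3 to 53.9) in running infarct than in running, from 8 UMIs in the running infarct library. Vascular endothelial-like nuclei had 18, 14.1, 72.9 and 32.6 CPM and fibroblast-like nuclei 43.8, 35.5, 79.1 and 34.8 CPM in the order running infarct, sedentary infarct, running, sedentary. In fibroblast-like nuclei the 3 libraries other than running overlapped over the class, but not within its clusters. In the cluster led by Gfpt2, Egr1 had 67.3, 41.1, 84.6 and 23.5 CPM in the same order. Both infarct intervals lay above the sedentary one there, and running infarct (53.9 to 83.0) overlapped running (74.3 to 95.9). In the cluster led by Kcnip1 it had 13.1, 19.9, 75.5 and 41.8 CPM, with both infarct intervals below the sedentary one. The part of the clusters was not tested. The values in fibroblast-like nuclei also differed with the mitochondrial share. Among fibroblast-like nuclei with at most 5% mitochondrial UMIs, Egr1 had 46.2 CPM (38.8 to 54.5) in the running infarct, 33.9 (28.2 to 40.4) in the sedentary infarct, 39.9 (25.5 to 59.3) in the running and 37.6 (30.5 to 46.0) in the sedentary library, and every pair of these intervals overlapped. Among those with 5 to 10% it had 33.9, 39.5, 90 and 35.4 CPM in the same order, with the running library apart from the others. The part of the mitochondrial share in the Egr1 difference was not tested.

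The 4 AP-1 genes had unlike patterns. Junb had 53.4 CPM (46.1 to 61.4) in the running infarct, 55.1 (48.5 to 62.3) in the sedentary infarct, 88.2 (80.8 to 96.0) in the running and 39.8 (34.5 to 45.6) in the sedentary library in fibroblast-like nuclei, 2.22-fold higher (1.88 to 2.62) in running than in sedentary. Jun had 33.2, 27.4, 49.5 and 46.6 CPM there, with no separation of the 2 uninjured libraries. In cardiomyocyte-like nuclei Jun had 29.7, 30.3, 29.3 and 35.0 CPM in the order running infarct, sedentary infarct, running, sedentary, and all 4 intervals overlapped. In vascular endothelial-like nuclei it was highest in the sedentary library, with 43.1, 49.5, 91.2 and 127 CPM (34.1 to 53.7, 37.4 to 64.2, 80.4 to 103 and 114 to 142) in that order.

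Fos and Fosb were scarce. Fos had 2, 0, 41 and 14 UMIs in cardiomyocyte-like nuclei of the running infarct, sedentary infarct, running and sedentary libraries, and 24, 8, 75 and 30 in fibroblast-like nuclei. It was measured only between running and sedentary, where it was 2.14-fold higher (1.38 to 3.38) in fibroblast-like and 1.87-fold higher (1.24 to 2.86) in vascular endothelial-like nuclei. In endocardial-like nuclei of the running library, 31 of its 40 UMIs were in Y-positive nuclei (143 of 389 nuclei), at 55.5 CPM, against 3.41 CPM in Y-negative nuclei. Fosb reached 42 UMIs in fibroblast-like nuclei of the running library, of which 37 were in Y-positive nuclei, and had 4, 1 and 5 UMIs in the running infarct, sedentary infarct and sedentary libraries. It passed the 100 UMI limit in no comparison.

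Dusp1 limits the MAP kinase signal that induces the other members. It had 25.3 CPM (18.9 to 33.2) in the running infarct, 21.9 (17.3 to 27.4) in the sedentary infarct, 45.1 (39.6 to 51.1) in the running and 28.7 (24.7 to 33.1) in the sedentary library in cardiomyocyte-like nuclei, where the running library alone stood apart, 1.57-fold higher (1.29 to 1.91) than the sedentary one. In Y-positive nuclei of that class Dusp1 had 57.6 CPM (49.4 to 66.7) in the running and 20.9 (16.0 to 26.8) in the sedentary library. In Y-negative ones the order turned, with 27.7 CPM in the running and 36.2 CPM in the sedentary library, a gap under 1.5-fold. In fibroblast-like nuclei Dusp1 had 27.2, 33.3, 61.2 and 70.1 CPM, so that both infarct libraries lay below both uninjured ones over the class. In the cluster led by Gfpt2 it had 37.9, 45.7, 78.7 and 94.8 CPM in that order. In the cluster led by Kcnip1 it had 30.7 (16.8 to 51.4), 32.8 (22.6 to 46.1), 46.9 (39.3 to 55.4) and 49.5 (41.5 to 58.6). There the infarct intervals overlapped the uninjured ones. Cluster shares differed between libraries, and their part was not tested. Atf3 had 2.92, 1.44, 14.1 and 9.21 CPM in cardiomyocyte-like nuclei in the order running infarct, sedentary infarct, running, sedentary, with 5 to 76 UMIs. Junb and Dusp1 overlap the genes Prdx2 and Ergic1 on the opposite strand, both also counted, so reads there can be shared if strand was not used.

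**Figure D3:**
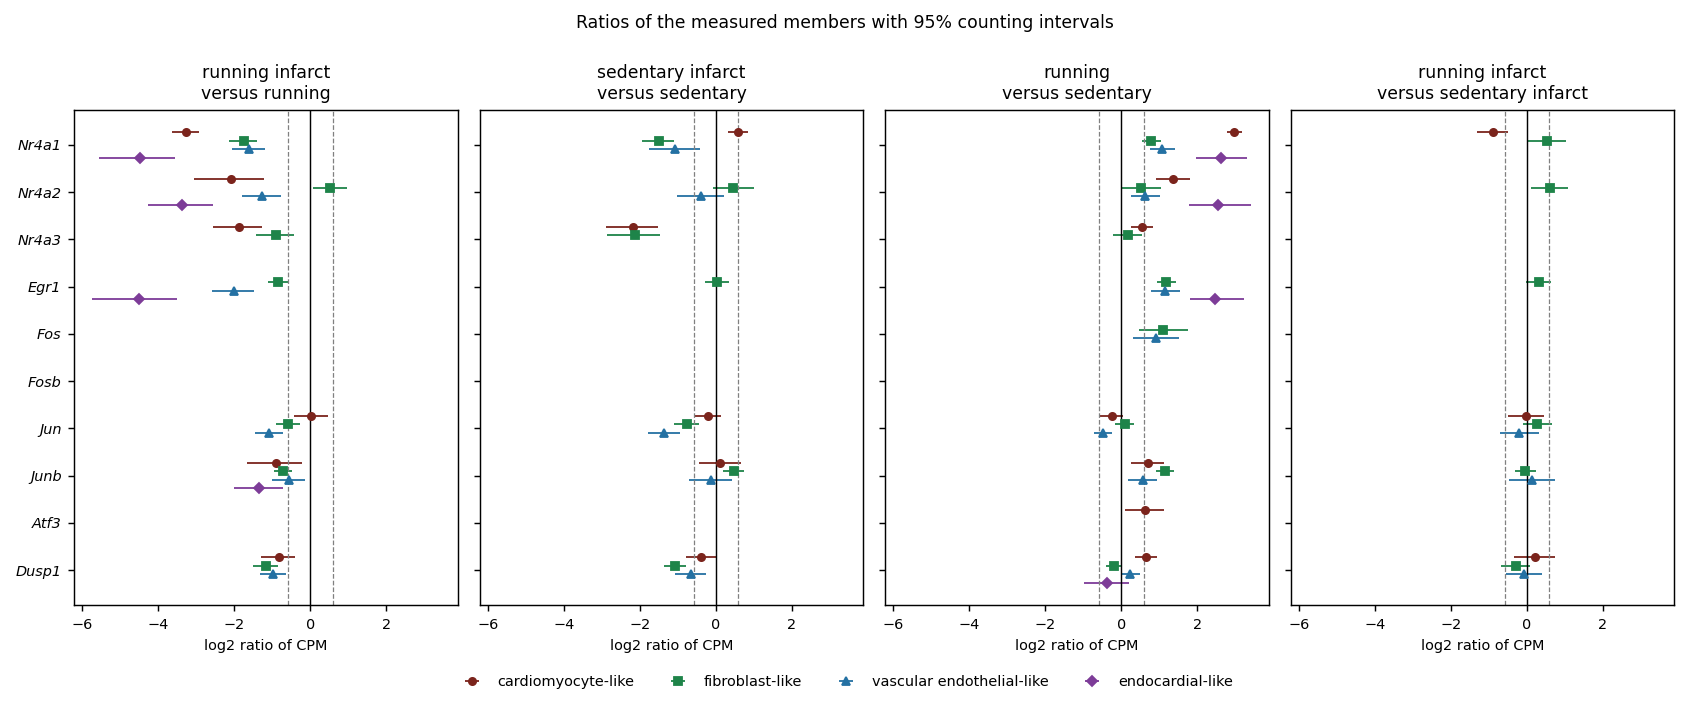
Log2 ratio of CPM (linear axis, 0 means even) of every measured member in 4 comparisons, with 95% counting intervals, for 4 cell classes. Dashed lines mark 1.5-fold. In running versus sedentary the points at the far right are Nr4a1 in cardiomyocyte-like nuclei (log2 2.97) and Nr4a1, Nr4a2 and Egr1 in endocardial-like nuclei.

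Counted over the 10 members in cardiomyocyte-like, fibroblast-like, vascular endothelial-like and macrophage-like nuclei (40 pairs), the running infarct against the running library had 19 measured pairs, of which 0 were at least 1.5-fold higher and 15 lower, while 6.34% of all measured gene and class pairs were higher and 8.11% lower. The sedentary infarct against the sedentary library had 17 measured pairs, 0 higher and 8 lower, with 6.13% and 6.48% over all pairs. The running against the sedentary library had 22 measured pairs, 13 higher and 0 lower, with 3.12% and 1.83% over all pairs. The running infarct against the sedentary infarct library had 13 measured pairs, 1 higher and 2 lower, with 2.55% and 2.87% over all pairs. A pair can pass the 100 UMI limit through the library where it is high, and the members were chosen for these contrasts, so these counts support nothing beyond the choice. In cardiomyocyte-like nuclei 5 of 7 measured members were higher in running than in sedentary, beside 3.84% of all measured genes. These were Nr4a1, Nr4a2, Junb, Atf3 and Dusp1, and of these 5 only Nr4a1 was past 1.5-fold in Y-negative nuclei. There Junb had 12.2 CPM in the running and 15.9 in the sedentary library, and Atf3 had 6.92 CPM in the running and 5.75 in the sedentary library. For the other 4 the call therefore rests on nuclei that are not Y-negative, from a pool of 2 hearts. In the same class 5 of 6 measured members were lower in running infarct than in running, beside 6.88%. In endocardial-like nuclei 3 of 4 were higher in running than in sedentary, beside 3.34%, and 4 of 4 lower in running infarct than in running, beside 11.1%. The running library enters 2 of these comparisons, so their values share its level.

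Single nuclei rarely held several members. With each nucleus thinned to 1000 UMIs, 2 or more members were detected in 0.319% of cardiomyocyte-like nuclei in the running infarct, 0.285% in the sedentary infarct, 5.48% in the running and 1.19% in the sedentary library, and 3 or more in 7 of 639 such nuclei in running and in none of the other libraries. In the running library, cardiomyocyte-like nuclei with a Nr4a1 UMI had a UMI of another member in 22.4% (15.6 to 30.4) of 134 nuclei, against 14.7% (11.7 to 18) of 505 without one, and these intervals overlapped. In endocardial-like nuclei the shares were 50% (32.4 to 67.6) of 34 and 19.1% (15.1 to 23.6) of 351, which did not overlap. The same separation was seen in fibroblast-like nuclei of the running library, at 43.0% (32.4 to 54.2) of 86 and 21.1% (19.0 to 23.3) of 1441, and of the sedentary library, at 41.7% (27.6 to 56.8) of 48 and 18.4% (16.4 to 20.6) of 1369. It was also seen in vascular endothelial-like nuclei of the running library, at 45.6% (32.4 to 59.3) of 57 and 27.0% (24.0 to 30.1) of 857. In that class of the sedentary library the shares were 38.5% of 26 and 24.7% of 807, with overlapping intervals. In cardiomyocyte-like nuclei of the sedentary library the order turned, at 9.68% of 31 and 11.4% of 726. It also turned in the sedentary infarct library, at 4.35% of 23 and 8.54% of 328, and both pairs of intervals overlapped. The intervals take nuclei as independent, and the shares were not split by cluster or Y-linked transcripts.

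Lists of other genes of the pathway were also examined. Of 27 other inducible transcription factors, 16 were measured in cardiomyocyte-like nuclei of running against sedentary, with 0 higher and 0 lower. Their median log2 ratio was 0.09, beside 0.00 for all genes. The 7 measured members had a median of 0.65, but they were chosen by such values, so no contrast with the list is drawn. Of 34 feedback regulators and other early response genes, 17 were measured, with 2 higher and 1 lower, beside 3.84% and 2.13% of all measured genes. One of the higher genes was Btg2, an antiproliferative regulator, at 34.5 CPM in the running and 11.7 in the sedentary library, 2.96-fold higher (2.25 to 3.91). Of 26 upstream factors and kinases, such as Creb1, Srf and the MAP kinases, 25 were measured and none passed 1.5-fold. In endocardial-like nuclei of running infarct against running, 8 of 11 measured inducible factors were lower (median -0.96), beside 11.1% of all measured genes, whose median was -0.12. Of the 3 retinoid X receptors, which pair with Nr4a1 and Nr4a2, all were measured in cardiomyocyte-like nuclei, with 0 past 1.5-fold between running and sedentary. In that class 2 were lower in running infarct than in running, beside 6.88% of all measured genes. Likewise 2 were lower in sedentary infarct than in sedentary, beside 5.32%. Sik1, a kinase gene that CREB drives and that restrains CREB coactivators, was lower in running infarct than in running by 3.93-fold (2.87 to 5.51) in cardiomyocyte-like and 3.39-fold (2.59 to 4.50) in fibroblast-like nuclei. Ccn2, a matrix-associated early response gene, went the other way, 4.83-fold higher (3.73 to 6.29) and 4.46-fold higher (3.96 to 5.04). The genes whose pattern was most like that of Nr4a1, by Pearson correlation over 16 class and library points centred within each class, were Zfp809 (0.836), Nt5dc1 (0.818), Iqcb1 (0.814), Tmem71 (0.814) and Zfp445 (0.811) of 5797 eligible genes. Among the members Fos had the highest value (0.844) and Egr1 the lowest (0.330). The points share libraries and depth, and the measure is a description.

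Heat shock genes, which mark another response to handling or stress, stood highest in the sedentary library and not in the running one. Their summed level over 14 genes in cardiomyocyte-like nuclei was 1094 CPM in the running infarct, 969 in the sedentary infarct, 1282 in the running and 1961 in the sedentary library, and in vascular endothelial-like nuclei 870, 928, 1134 and 2558 CPM. The summed level of the 10 members was 125, 145, 515 and 170 CPM in cardiomyocyte-like and 222, 223, 539 and 403 CPM in vascular endothelial-like nuclei in the same order, highest in the running library in both classes. In macrophage-like nuclei the members summed to 242 CPM in the running and 260 in the sedentary library, and in lymphatic endothelial-like nuclei to 243 and 290 CPM, so there the running library was not the highest. The mitochondrial share of UMIs in cardiomyocyte-like nuclei was 4.45% in the running infarct, 4.91% in the sedentary infarct, 7.66% in the running and 5.07% in the sedentary library. Within cardiomyocyte-like nuclei with 5 to 10% mitochondrial UMIs, Nr4a1 had 33.3, 65.1, 335 and 42.9 CPM, and within those with at most 5% it had 34.3, 60.0, 325 and 37.5 CPM, in the order running infarct, sedentary infarct, running, sedentary. The running library was thus highest within both bands, although 91.7% of all its barcodes had more than 5% mitochondrial UMIs. The part of the mitochondrial share in the Nr4a1 difference was not tested.

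**Figure D4:**
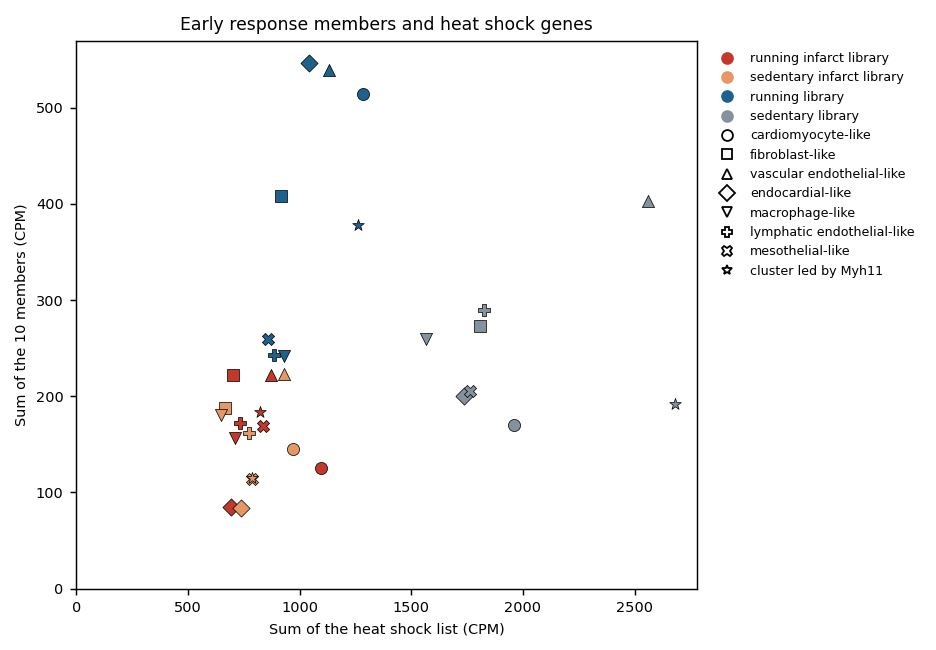
Summed level of the 10 members (vertical, CPM) against the summed level of 14 heat shock genes (horizontal, CPM), 1 point per class and library, both axes linear. Colour gives the library and shape the class. Points of the running library lie at a heat shock sum of 858 to 1282 CPM and points of the sedentary library to the right of them, at 1565 to 2679 CPM, while the members' sum is highest in the running library in 6 of the 8 classes.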

How the data were processed

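Each library has a deposited matrix of raw UMI counts, made with Cell Ranger 7.1 on GRCm39 per the submitters' processing notes, and how the barcodes had been called is not given in the sources used here. A barcode was kept if it had 300 or more genes and no more than 20% of mitochondrial UMIs, and the highest Scrublet scores were removed at 0.8% per 1000 barcodes, because its automatic threshold called 1640 doublets in the running infarct library and 0 in the others. Clustering (scanpy 1.11.5, 3000 variable genes, 40 components, 15 neighbours, Leiden resolution 1) left out the members, other early response genes and heat shock genes. A cluster took the type with the highest median marker excess of at least 1 on the log2 scale. Medians replaced means after a first scoring had left fibroblast clusters unnamed or named after another type. Unnamed clusters held 17.7 to 23.7% of nuclei. CPM carry exact Poisson, ratios exact conditional binomial and shares exact Clopper-Pearson intervals. The ratio code was tested on simulated counts. The members and lists were chosen with earlier results of these data known. Named list genes were those beyond 1.5-fold with the interval bound farthest from even.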

Additional observations from a re-analysis of the deposited data

Results flagged for a closer look

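In cardiomyocyte-like nuclei the log2 ratio of Nr4a1 was -3.28 for running infarct against running and 0.58 for sedentary infarct against sedentary, on opposite sides of even, a difference of -3.86. Seen the other way, it was -0.89 for running infarct against sedentary infarct and 2.97 for running against sedentary, again a difference of -3.86. In fibroblast-like nuclei Junb was -0.72 for running infarct against running and 0.47 for sedentary infarct against sedentary, a difference of -1.19. With 1 library per group none of these differences was tested. For Nr4a1 the signs were the same in Y-positive and Y-negative nuclei, at 27.9 and 37.5 CPM in running infarct, 32.0 and 75.5 CPM in sedentary infarct, 488 and 95.8 CPM in running and 27.4 and 52.1 CPM in sedentary. In Y-positive nuclei, however, the intervals of running infarct (14.8 to 47.7), sedentary infarct (22.2 to 44.7) and sedentary (21.7 to 34.1) overlapped. There the signs of sedentary infarct against sedentary and of running infarct against sedentary infarct lay within counting error.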

How the results depend on the processing

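Counts below are member and class pairs at least 1.5-fold higher or lower over 4 main classes, and the causes of the shifts were not tested. For running infarct against running (0 higher, 15 lower), 1 pair was higher with mitochondrial genes in the denominator, without a low count limit or in nuclei with 5 to 10% mitochondrial UMIs. Its lower count was 4 at most 5% mitochondrial UMIs, 27 from 20 UMIs, 28 without a limit, 9 in Y-negative nuclei and 9 in the 5 to 10% band. For sedentary infarct against sedentary (0 higher, 8 lower), 1 pair was higher at most 5% mitochondrial UMIs, with doublets kept, with early response genes among the variable genes, in Y-negative nuclei, with nuclei weighed the same, without the 10 nuclei with most UMIs, in the 5 to 10% band and without the low-depth cardiomyocyte-like cluster. It was 2 from 20 UMIs and 4 without a limit. The lower count was 17 and 22 under those limits, 5 each in Y-negative and Y-positive nuclei and 4 in the band. For running against sedentary (13 higher, 0 lower), the higher count was 5 at most 5%, 21 without a limit and 7 in Y-negative nuclei, and the lower count 2 at most 5%, 1 from 20 UMIs, 2 without a limit, 1 in Y-positive nuclei and 2 in the band. For running infarct against sedentary infarct (1 higher, 2 lower), the higher count was 0 with doublets kept, 2 with early response genes clustered, 4 from 20 UMIs, 10 without a limit, and 0 in Y-positive nuclei, Y-negative nuclei and the band. The lower count was 1 at most 5%, 1 with doublets kept, 4 without a limit, 1 in Y-negative nuclei, 0 in Y-positive ones, 1 with nuclei weighed the same and 1 in the band. At most 5%, 7 pairs of the first comparison were measured, against 19 in all nuclei.

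Of 39 called log2 ratios, 23 were still measured in Y-negative nuclei and 20 at most 5% mitochondrial UMIs. Among these, the ones that turned were Dusp1 in cardiomyocyte-like nuclei, running against sedentary, at -0.39 in Y-negative nuclei, and Egr1 in fibroblast-like nuclei, running infarct against running, at 0.30 at most 5% mitochondrial UMIs. Under the 100 UMI limit in Y-negative nuclei, Nr4a2 and Junb in cardiomyocyte-like nuclei also turned, at 8.52 and 12.2 CPM in running and 10.5 and 15.9 CPM in sedentary. Ratios that moved beyond their counting interval numbered 13 of 39 without the 10 nuclei with most UMIs, 12 of 25 in Y-positive nuclei, 7 of 23 in Y-negative nuclei, 7 of 20 at most 5% mitochondrial UMIs and 4 of 26 in the band. The band and the low-depth cluster were alternatives chosen after the data had been seen. No paired analysis was possible because every group has 1 library.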

Other observations

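Genes that respond to glucocorticoids, which share some inducers with the members, were lower in running infarct than in running in 9 of 9 measured genes of endocardial-like nuclei and 7 of 11 of fibroblast-like nuclei, beside 11.1% and 9.49% of all measured genes of these classes. In cardiomyocyte-like nuclei 6 were measured, with 1 higher and 2 lower, beside 5.41% and 6.88%. In macrophage-like nuclei 5 of 6 were lower, beside 6.98%, and in vascular endothelial-like nuclei 3 of 10, beside 8.25%. Tsc22d3, which encodes the glucocorticoid-induced leucine zipper, was 2.68-fold lower (2.30 to 3.12) in fibroblast-like nuclei, at 58.8 CPM in running infarct and 157 in running. Of the 2 lower genes in cardiomyocyte-like nuclei, Pdk4, which restrains glucose oxidation, was 11.8-fold lower (9.30 to 15.1), at 34.6 CPM in running infarct and 408 in running. In running infarct against sedentary infarct, 6 of 7 measured genes in endocardial-like and 5 of 11 in fibroblast-like nuclei were lower, beside 5.29% and 2.20%. In sedentary infarct against sedentary, 1 of 8 and 2 of 11 were lower, beside 7.46% and 7.25%. Per1, Cebpd, Nfkbia and Errfi1 of this list are also in the early response lists above. The list was described by its counts only, and these values bear on no comparison of the members.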
